A study of Rattus norvegicus with 7 samples.

Results

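Large stitched acetylated regions are stretches of the genome in which many peaks of acetylated histone H3 lysine 27 (H3K27ac) lie close together. They were defined here in S16, an established Schwann cell line of the rat. H3K27ac peaks on chromosomes 1 to 20 were joined wherever the gap between them was 10 kb or less, and a joined region was selected on its summed H3K27ac peak length, which had to be 7000 bp or more. This gave 2295 large regions out of 44402 joined regions. They held 23413 of the 97093 H3K27ac peaks (24.1%) and 31.5% of the acetylated length. The peaks inside a region are called its constituents, and the stretches between them its gaps.

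The peak lists set against these regions came from untreated S16 cells and from nerve. CUT&RUN, in which an antibody guides a nuclease to the bound DNA, was used in S16 for NR2F2, RXRG, YY1 and TEAD1, and ChIP-seq was used in S16 for H3K27ac. SREBP1 was mapped by ChIP-seq in sciatic nerve of wild-type rats at postnatal day 15, so its sites come from another tissue, one that also holds cells other than Schwann cells. Each target had 1 library, on rat build rn5. The lists hold on chromosomes 1 to 20 a total of 40142 NR2F2, 46687 RXRG, 37822 YY1, 25838 TEAD1 and 28908 SREBP1 peaks. The S16 lists give positions and no peak heights, so read depth is unknown. With no replicate there is no test, and the 95% exact binomial intervals below cover counting error only. They are too narrow where neighbouring peaks are alike. Gene names are not given, since no rn5 annotation was used, and regions go by their coordinates.

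H3K27ac is laid down at active promoters and enhancers. Dense runs of such enhancers are often stitched together and ranked by their signal, and the highest are known as super-enhancers, many of which lie near genes of cell identity. The regions here were ranked by peak length and not by signal, so the name is not used for them. NR2F2 is an orphan nuclear receptor, and RXRG is a retinoid X receptor, a partner of many other nuclear receptors. YY1 is a zinc finger protein found at promoters and enhancers and needed for peripheral myelination. TEAD1 binds DNA for the Hippo pathway coactivators YAP and TAZ. SREBP1 activates genes of fatty acid synthesis.

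The size of the regions follows from the rule and is given as a description. A large region had a median of 9 constituents (range 2 to 71) and a median span of 50696 bp (10653 to 371252 bp), measured from the start of the first constituent to the end of the last. The summed peak length had a median of 10152 bp. The distribution had a long upper tail, with 225 regions of 20000 bp or more and 203 with a span above 100 kb. Most of a region lay outside called H3K27ac peaks. Over all 2295 regions these peaks took up 21.3% of the 133 Mb spanned, and 105 Mb lay in the 21118 gaps. Per region the median was 21.2%, against 20.6% in other joined regions of 2 or more peaks. Single broad peaks seldom made a large region. The widest constituent contributed a median of 24.8% of the summed length, and in 10 regions one constituent reached 7000 bp by itself. The median constituent was 1002 bp wide, against 673 bp for the 73680 H3K27ac peaks elsewhere.

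**Figure D1:**
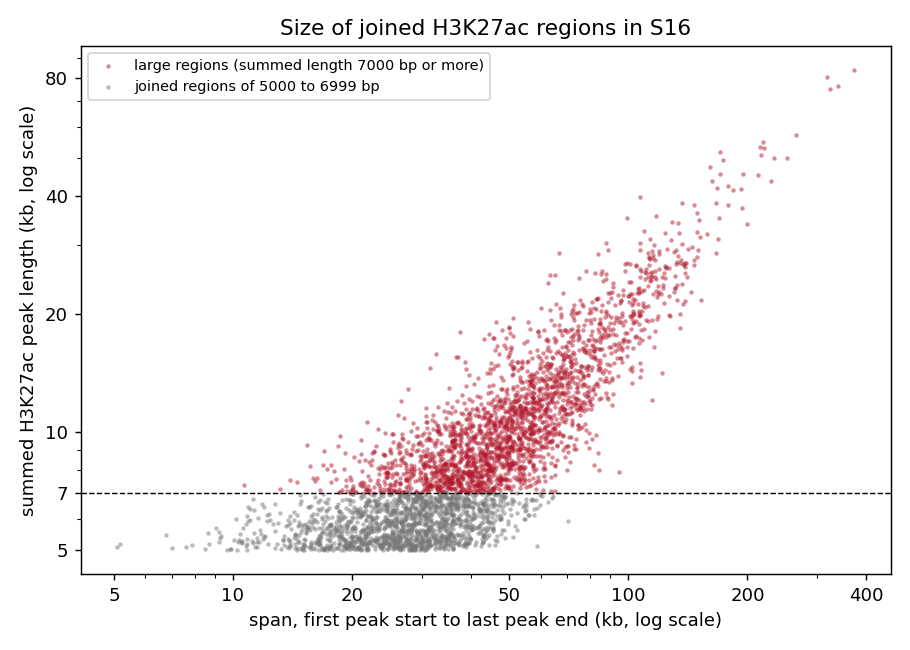
Each point is 1 joined region, with its span in kb on the horizontal axis and its summed H3K27ac peak length in kb on the vertical axis, both on log scales. The 2295 large regions lie above the dashed threshold at 7000 bp, and the 1582 joined regions of 5000 bp up to the threshold lie below it with no break between them.

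The threshold cut a continuous distribution. The 5 regions just inside it had summed lengths of 7000, 7003, 7005, 7007 and 7008 bp, with 4, 4, 9, 10 and 7 constituents. The 5 just outside lay from 6991 bp up to 1 bp below the threshold, with 4 to 9 constituents. Both sets varied widely in factor content, from 3 to 14 factor peaks inside and from 1 to 9 outside.

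The region with the largest summed length was also the longest. It lay at chr1:105629741-106000992, spanned 371252 bp and held 71 constituents with a summed length of 83777 bp. Its factor peaks numbered 9 for NR2F2, 19 for RXRG, 14 for YY1, 13 for TEAD1 and 10 for SREBP1, yet 47 of its 71 constituents met no factor. The next was at chr13:75437841-75755011, with 56 constituents and 80300 bp. It had as many TEAD1 as YY1 peaks, 18 of each, but 4 of RXRG and 8 of NR2F2. The third, at chr1:274426122-274765936 with 62 constituents and 76286 bp, was the richest of the 10 largest in YY1, with 27 peaks, and had 18 of RXRG, 14 of TEAD1, 10 of SREBP1 and 6 of NR2F2. The fourth, at chr14:3520908-3844255, had 59 constituents and 74835 bp, and 40 of its constituents met no factor. These 4 regions were also the 4 with the largest span and the most constituents, followed on both counts by chr1:94989712-95254666 (51 constituents over 264955 bp).

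**Figure D2:**
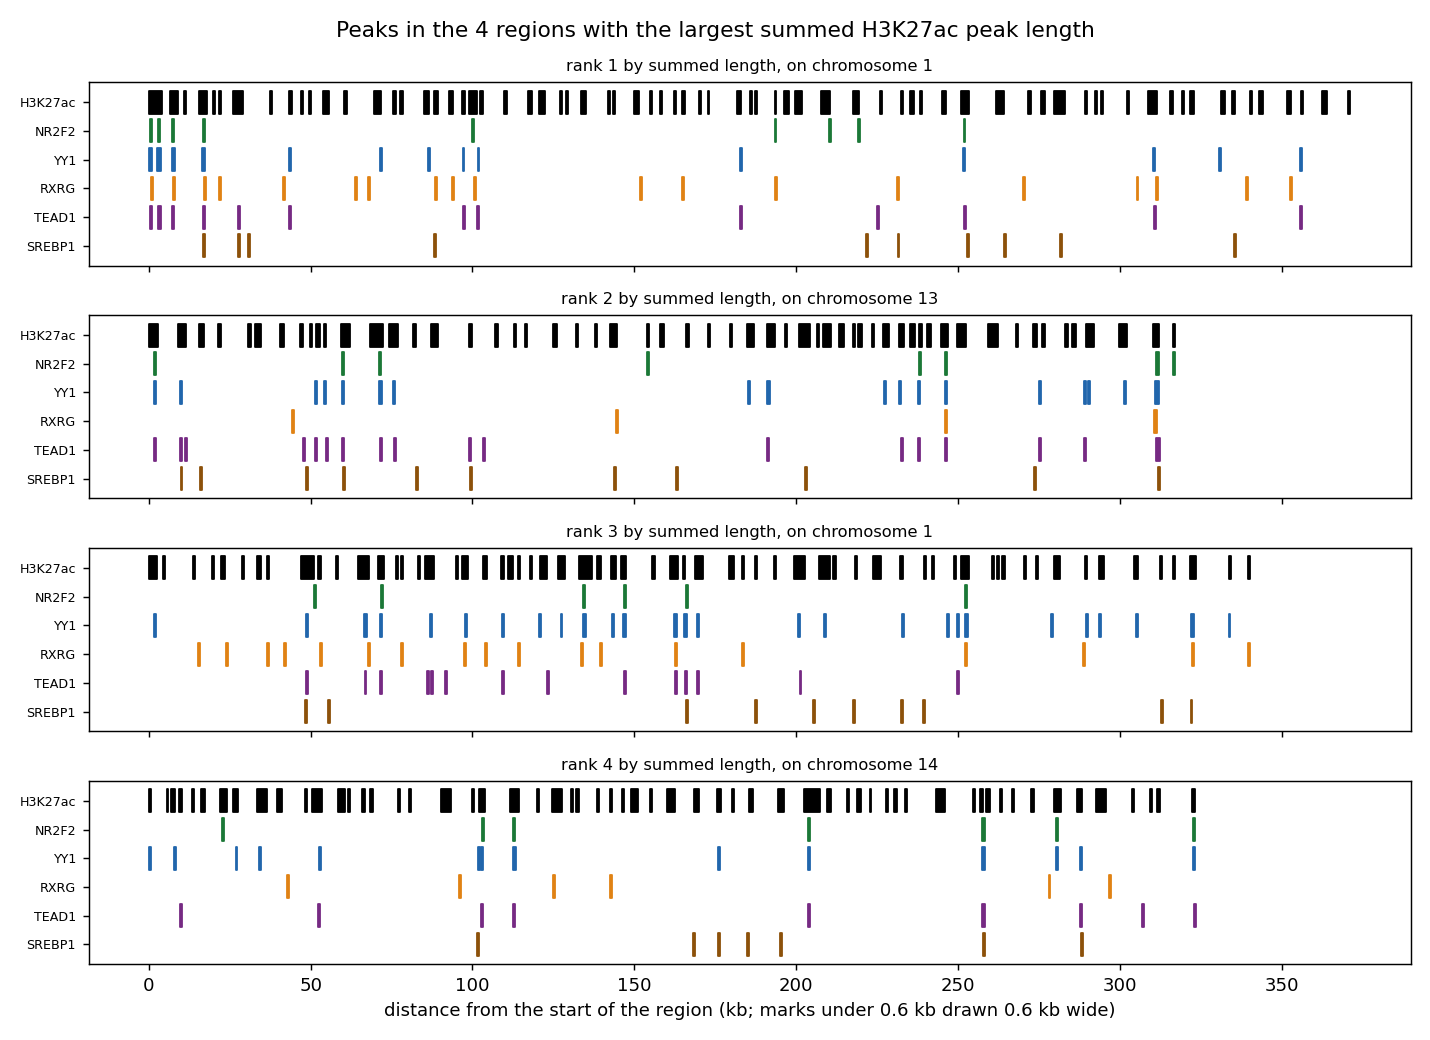
H3K27ac peaks and the peaks of the 5 factors are drawn along the 4 regions with the largest summed length, as distance in kb from the start of each region, with 1 row per list. Factor peaks sit on some of the constituents and leave long acetylated stretches without any, as in the first region, where 47 of 71 constituents met no factor.

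The other 6 of the 10 largest regions spanned 170026 bp (chr16:47091292-47261317) to 264955 bp and held 36 to 51 constituents. YY1 was the most frequent factor in 5 of them, with 13 to 22 peaks. The exception was chr1:94989712-95254666, with 13 RXRG peaks against 12 of YY1 and 10 of NR2F2. NR2F2 was the most frequent factor in none of the 10 largest regions, where its peaks numbered from 4 at chr1:184472354-184688990 to the 10 just given.

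The first comparison asked whether acetylated sites inside large regions carry the same factors as acetylated sites elsewhere. A constituent was counted as meeting a factor when at least 1 bp was shared. Nuclear receptors were found on a smaller share of constituents than of other H3K27ac peaks, and YY1 and TEAD1 on a larger share. NR2F2 met 20.0% of the constituents (19.5 to 20.5%), against 26.8% (26.5 to 27.1%) of the other H3K27ac peaks, with 25.2% over all H3K27ac peaks. RXRG met 18.1% of the constituents (17.6 to 18.6%), against 21.1% of the others and 20.4% of all. YY1 met 36.1% of the constituents (35.5 to 36.7%), against 29.2% of the others and 30.9% of all. TEAD1 met 23.4% (22.8 to 23.9%), against 17.7% of the others and 19.1% of all. Nerve SREBP1 met 16.5% (16.02 to 16.97%), against 14.6% of the others and 15.1% of all. The share for NR2F2 was lower in large regions on each of the 20 chromosomes, and those for YY1 and TEAD1 were higher on each of the 20. RXRG was higher on 2 chromosomes, 10 and 19, and SREBP1 on 16. The direction for both nuclear receptors depended on the joining distance: with gaps of 5 kb or less, which left 342 regions, NR2F2 met 28.9% of the constituents against 25.1% of the others, and RXRG 21.9% against 20.3%. SREBP1 then met 14.4% against 15.1%.

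Width differed between the groups as well, since large regions hold wide peaks by their rule, and wider constituents met more of every list. The H3K27ac peaks were therefore divided by width into 4 classes of nearly equal number. Among the narrowest, of 231 to 368 bp, NR2F2 met 7.31% of 4009 constituents of large regions (6.52 to 8.16%), against 17.0% of 20278 other peaks. In the class of 369 to 741 bp the values were 11.3% against 29.7%, and in that of 742 to 1239 bp 17.0% against 30.8%. In the widest class, from 1240 bp, they came together at 31.8% (30.8 to 32.7%) against 31.2% (30.5 to 32.0%). NR2F2 on other H3K27ac peaks thus changed little with width above 369 bp, while inside large regions it was highest on the widest constituents.

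RXRG was lower in large regions in all 4 classes. It met 7.81% of the narrowest constituents (6.995 to 8.68%) against 9.11% of the others (8.72 to 9.51%), 13.05% against 22.4% from 369 to 741 bp, and 17.5% against 27.7% from 742 to 1239 bp. In the widest class it met 25.5% (24.6 to 26.4%) against 27.3% (26.6 to 27.99%). For YY1 and TEAD1 the comparison turned with width. In the narrowest class YY1 met 6.09% of the constituents against 4.68% of the others. From 742 to 1239 bp YY1 met 32.1% of the constituents against 40.2% of the others, and TEAD1 15.6% against 21.2%. In the widest class YY1 met 61.4% against 59.3%, and TEAD1 44.7% against 41.7%. The widest class held 9158 of the 23413 constituents, a larger share than the 15107 of 73680 other peaks, and the part of this in the overall shares of YY1 and TEAD1 was not tested. SREBP1 was lower in large regions in the 3 wider classes, for example 27.7% against 31.1% in the widest. Within that class constituents of large regions were wider too, with a median of 1871 against 1647 bp.

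**Figure D3:**
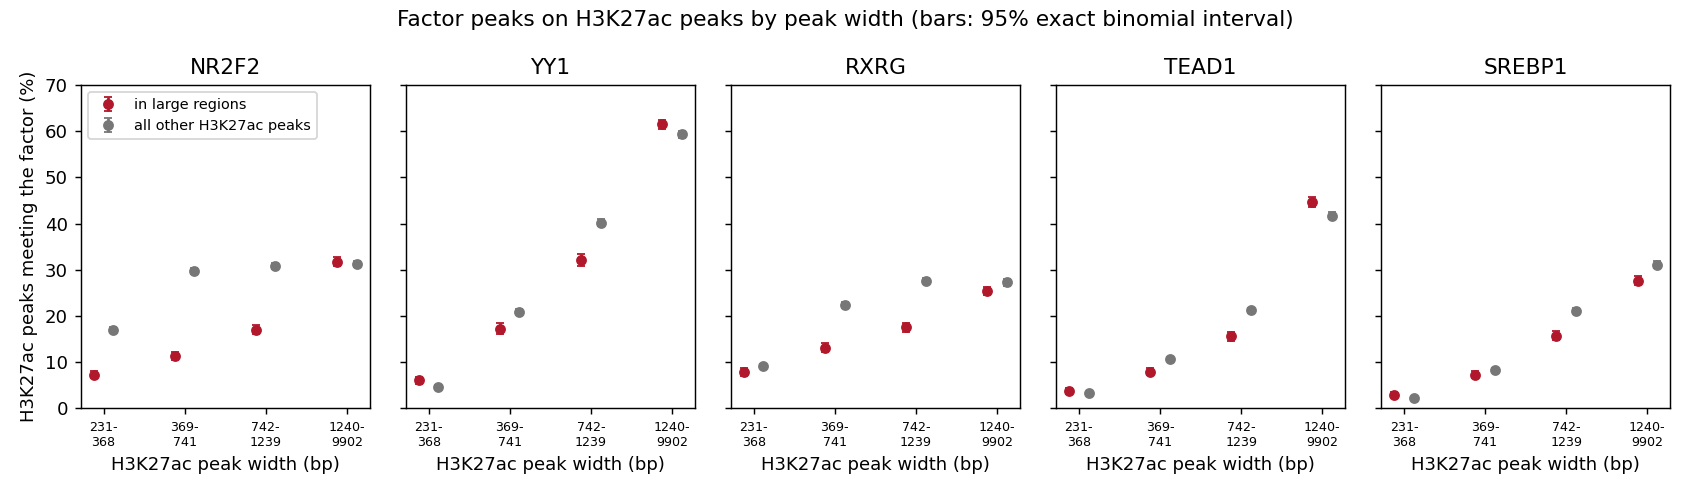
The share of H3K27ac peaks that meet each factor, in percent, is shown for 4 classes of H3K27ac peak width in bp, for peaks in large regions and for all other H3K27ac peaks. Bars are 95% exact binomial intervals, and the NR2F2 panel shows 7.31% against 17.0% in the narrowest class and 31.8% against 31.2% in the widest.

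Crowding was also followed over all joined regions, by the number of peaks in a region. NR2F2 met 35.7% of the 26054 H3K27ac peaks that had no neighbour within 10 kb, 27.9% of those in pairs, 19.8% of those in regions of 3 or 4 peaks, 19.1% with 5 to 9 peaks, 19.6% with 10 to 19 and 15.95% with 20 or more. Taken without regard to width, other joined regions of 2 or more peaks had 22.0% for NR2F2, close to the 20.0% of large regions. Their peaks were narrower, with a median of 701 against 1002 bp. For RXRG other joined regions of 2 or more had 18.1%, the value of large regions to 3 digits, against 26.5% of isolated peaks. YY1 met 28.5% of the peaks in other joined regions of 2 or more and 30.6% of isolated peaks, and TEAD1 17.2% and 18.7%. Among peaks of 369 to 741 bp alone, NR2F2 met 42.0% of isolated peaks, 32.2% in pairs and 18.4% in regions of 3 or 4. It met 13.3% with 5 to 9 peaks, 13.2% with 10 to 19 and 8.13% with 20 or more. At this width the share thus also fell among joined regions. RXRG met 29.6%, 23.3%, 15.3%, 14.4%, 14.1% and 10.8% over the same steps.

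Per unit of acetylated DNA, large regions held fewer peaks of every factor than the remaining H3K27ac peaks. With 1 shared bp enough, narrower H3K27ac peaks gain more factor peaks per bp by construction. The remaining peaks were narrower, with a median of 673 against 1002 bp. The part of this in the densities and shares below was not tested. NR2F2 had 183 peaks per Mb of constituent, against 342 per Mb elsewhere, a ratio of 0.536. RXRG had 169 against 276 per Mb, a ratio of 0.610. SREBP1 had 138 against 176 per Mb, YY1 341 against 372 and TEAD1 214 against 222. The ratio was nearest to 1 for TEAD1, at 0.963, and for YY1, at 0.917. Of all acetylated peaks of a list, large regions held 19.7% for NR2F2, 21.9% for RXRG, 26.5% for SREBP1, 29.6% for YY1 and 30.7% for TEAD1, set beside their 31.5% of the acetylated length.

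The constituents themselves were unequal. No factor was found on 49.8% of them, close to the 49.1% of other H3K27ac peaks, and these had a median width of 658 bp. A single factor was present on 17.7%, 2 on 13.2%, 3 on 9.89%, 4 on 6.69% and all 5 on 2.69%. Among other H3K27ac peaks a single factor was present on 20.4%, 2 on 13.6%, 3 on 8.12%, 4 on 6.16% and all 5 on 2.57%. Constituents with 3 or 4 factors had median widths of 1765 and 1793 bp. Some combinations differed more than the numbers of factors. YY1 alone occupied 6.13% of the constituents and YY1 with TEAD1 alone 6.02%, against 4.50% and 3.92% of other peaks. NR2F2 with YY1 and TEAD1, without RXRG or SREBP1, was on 3.15% against 1.18%. NR2F2 alone was on 2.65% against 7.73%, and NR2F2 with RXRG alone on 1.39% against 4.13%. Inside large regions NR2F2 was mostly found with YY1: 77.3% of the constituents with NR2F2 also met YY1, against 51.8% of other H3K27ac peaks with NR2F2. With TEAD1 the shares were 57.7% against 34.2%, and with RXRG 47.0% against 51.9%. These constituents were wider than other peaks, and the part of width in the shared peaks was not tested.

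Factors that occur in one region did not always share a constituent. YY1 and TEAD1 nearly always did: of the 2043 large regions with both on constituents, 98.7% (98.1 to 99.1%) had at least 1 constituent that met both. NR2F2 and YY1 shared one in 92.5% of 1873 regions, and NR2F2 and RXRG in 77.5% of 1613. The pairs found apart most often were RXRG with SREBP1, on different constituents in 42.2% of 1454 regions, and RXRG with TEAD1, in 34.1% of 1651. YY1 was the most frequent of the 5 and has more chances to meet any other, so these shares describe the regions and do not rank affinities. They were not taken for other joined regions. Of single constituents with TEAD1, 92.0% met YY1, against 85.6% of other H3K27ac peaks with TEAD1. Of those with RXRG, 27.3% met SREBP1 and 40.6% TEAD1, against 24.2% and 32.7% of other H3K27ac peaks with RXRG.

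The widest constituent of a region met every factor more often than the narrower ones. It met YY1 in 73.7% of the 2295 regions, TEAD1 in 59.7%, NR2F2 in 39.7%, nerve SREBP1 in 32.9% and RXRG in 28.9%, and no factor in 14.2%. For the second widest the values were 62.7% for YY1, 44.4% for TEAD1, 31.7% for NR2F2, 29.0% for SREBP1 and 25.7% for RXRG. Below the third widest YY1 met 25.1%, RXRG 14.7%, NR2F2 14.5%, TEAD1 13.9% and SREBP1 11.4%. Median widths were 2705 bp for the widest, 1967 bp for the second and 700 bp below the third. Other H3K27ac peaks from 1240 bp, of median 1647 bp, met YY1 in 59.3%, TEAD1 in 41.7%, NR2F2 in 31.2%, SREBP1 in 31.1% and RXRG in 27.3%. The part of width in this order was not tested. The widest constituents made up 23.3% of the acetylated length of large regions. They held 27.9% of the TEAD1 peaks on constituents and 24.1% of the YY1 peaks, but 21.3% of NR2F2, 19.7% of SREBP1 and 18.0% of RXRG. For RXRG, SREBP1 and NR2F2 the widest constituent thus held less than its share of the length.

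The first and last constituents of a region had higher shares for every factor than those between them. NR2F2 met 25.2% of the 4590 outer constituents (24.0 to 26.5%) and 18.7% of the 18823 inner ones (18.1 to 19.3%). YY1 met 45.0% of the outer and 34.0% of the inner ones, RXRG 24.2% and 16.5%, TEAD1 28.9% and 22.0%, and SREBP1 23.0% and 14.9%. Outer constituents were wider, with a median of 1155 against 963 bp. The difference remained among constituents of 742 to 1239 bp, with 23.7% of outer and 15.4% of inner ones for NR2F2, 42.6% and 29.6% for YY1 and 25.7% and 15.6% for RXRG. It was not seen among constituents of 231 to 368 bp, where NR2F2 met 6.89% of the outer (4.99 to 9.23%) and 7.38% of the inner ones (6.53 to 8.31%).

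The second comparison took the gaps apart from the constituents. A factor peak that touched no constituent but lay inside a region was counted in a gap. RXRG had the largest share of its peaks there with the rule used, and SREBP1 came before it under 3 of the alternatives: with joining across 5 kb (SREBP1 18.1%, RXRG 13.4%), with the factor peak's midpoint required in the constituent (34.8% and 33.8%) and with 50% of the shorter peak shared (34.1% and 33.6%). Of 6895 RXRG peaks in large regions, 2108 or 30.6% (29.5 to 31.7%) lay in gaps, against 13.3% in the other joined regions and 17.8% in all joined regions. Nerve SREBP1 had 23.4% of 5116 peaks in gaps (22.3 to 24.6%), against 14.3% in other joined regions and 16.9% in all. NR2F2 had 12.9% of 5960 (12.1 to 13.8%), against 5.27% in the others and 6.89% in all. TEAD1 had 12.1% of 6896 (11.3 to 12.9%), against 7.91% in the others and 9.23% in all. YY1 had the lowest share in gaps, 6.85% of 10390 (6.37 to 7.36%), against 3.74% in the others and 4.69% in all. With joining across 5 kb NR2F2 was lower, at 5.50% against 6.08% for YY1. Large regions also held more gap for their acetylated length, 105 Mb beside 28.4 Mb of constituents. The other joined regions had 163 Mb beside 61.8 Mb. Of all 44402 joined regions, 26054 were single peaks, none of them large. These hold no gap, which lowers the gap shares of other and all joined regions by construction.

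Counted per Mb, the gaps of large regions differed less from other gaps. NR2F2 had 7.32 peaks per Mb of gap in large regions and 7.22 in other joined regions, a ratio of 1.01. For SREBP1 the values were 11.4 and 11.1 per Mb, and for TEAD1 7.92 and 7.23. RXRG had 20.1 and 16.1 per Mb, a ratio of 1.25, and YY1 6.78 and 5.49, a ratio of 1.23. RXRG was denser in the gaps of large regions on each of the 20 chromosomes and YY1 on 17, against 10 for NR2F2, 10 for SREBP1 and 13 for TEAD1. Gaps held far fewer peaks per Mb than H3K27ac peaks did, and less so in large regions. The RXRG density on H3K27ac peaks was 8.41 times its gap density in large regions and 17.2 times in other joined regions, single peaks included. SREBP1 had ratios of 12.1 and 15.9, NR2F2 24.99 and 47.3, TEAD1 26.99 and 30.7, and YY1 50.3 and 67.8. A factor peak sharing 1 bp with an H3K27ac peak was never counted in a gap, which raises these ratios by construction. How much of them follows from this was not tested.

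**Figure D4:**
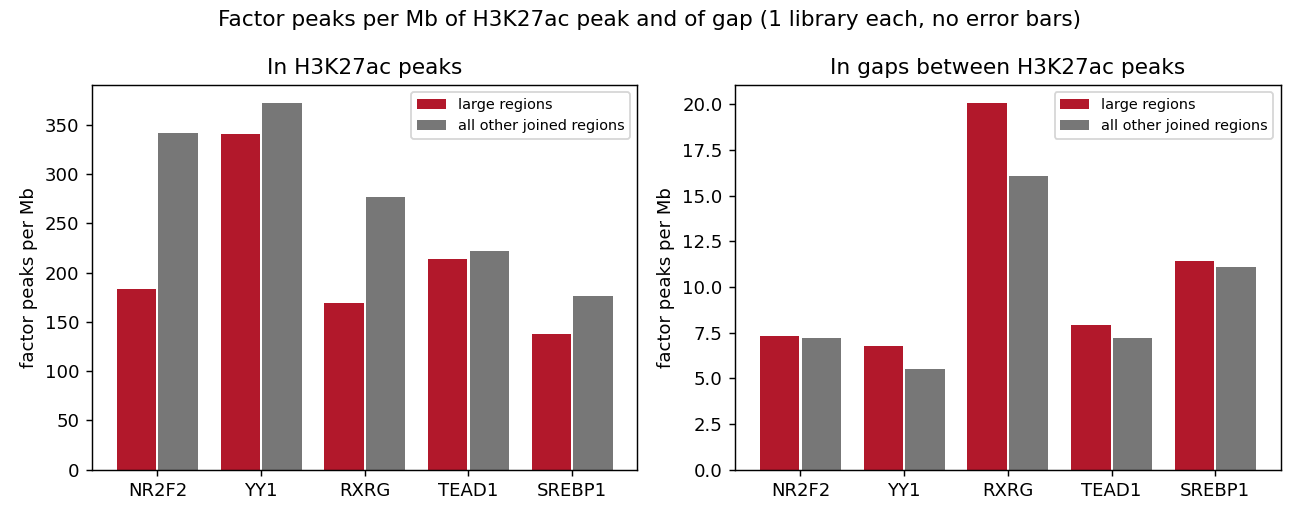
Factor peaks per Mb are shown on H3K27ac peaks and in the gaps between them, for large regions and for all other joined regions, with separate vertical axes. On H3K27ac peaks NR2F2 has 183 against 342 per Mb, and in gaps RXRG has 20.1 against 16.1 per Mb.

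Of the 21118 gaps of large regions, 4340 (20.6%, 20.0 to 21.1%) held at least 1 factor peak, against 19.3% of the 31573 other gaps. The factors did not fill the gaps in the same way. TEAD1 and YY1 peaks in gaps of large regions had a median distance of 460 and 563.5 bp to the edge of the nearest constituent, against 402.5 and 573 bp in the gaps of other joined regions. Within 500 bp lay 51.7% of the TEAD1 and 46.1% of the YY1 gap peaks, against 55.6% and 46.98% in other joined regions. For SREBP1 the median was 665 bp, against 534.5 bp. NR2F2 and RXRG lay farther off, at medians of 1288 and 1452.5 bp, against 1297 and 1406 bp. In both kinds of region the nuclear receptors lay farther from H3K27ac peaks than the other factors. Density in short and long gaps also differed by factor. In gaps of 1000 to below 2500 bp TEAD1 had 24.1 and YY1 18.7 peaks per Mb, against 25.8 and 16.03 in such gaps of other joined regions. In gaps of 5000 bp or more TEAD1 had 5.57 and YY1 4.94, against 5.08 and 4.26. RXRG had 12.98 per Mb in the shorter gaps, against 13.9, and 21.2 in the longer, against 16.3. NR2F2 had 7.35 in the shorter, against 6.97, and 7.48 in the longer, against 7.45.

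The S16 factor peaks in gaps were narrower than those on constituents and met other factors less often. A wider peak touches a constituent, or another factor peak, more readily under the 1 bp rule. How much of both differences follows from this was not tested. SREBP1 peaks had the same median width, 485 bp, in both places. The median width of NR2F2 peaks was 245 bp in gaps against 334 bp on constituents of large regions, and that of YY1 253 against 507.5 bp. Of the RXRG gap peaks, 8.30% met another factor (7.16 to 9.56%), against 63.5% of the RXRG peaks on constituents and 9.40% of RXRG peaks outside all joined regions. For NR2F2 the shares were 33.0% in gaps (29.7 to 36.5%), against 82.2% on constituents and 18.96% outside joined regions. NR2F2 gap peaks met YY1 in 14.3% of cases, TEAD1 in 15.5% and RXRG in 16.6%, whereas outside joined regions they met YY1 in 4.42% and TEAD1 in 4.10%. TEAD1 and YY1 gap peaks met another factor in 55.0% and 51.7% of cases, mostly each other, with YY1 on 44.0% of the TEAD1 gap peaks. Outside all joined regions TEAD1 and YY1 peaks did so in 38.7% and 44.2% of cases. In gaps of other joined regions the share was 9.73% for RXRG, 24.1% for NR2F2, 48.3% for TEAD1 and 51.3% for YY1. NR2F2 peaks there met YY1 in 7.06%, TEAD1 in 7.91% and RXRG in 15.9% of cases. YY1 lay on 37.7% of the TEAD1 peaks there. No control library for CUT&RUN was analysed here, so background calls in gaps cannot be told from binding.

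Seen region by region, most large regions held most of the factors. All 5 were present, in constituents or gaps, in 1485 of the 2295 large regions (64.7%, 62.7 to 66.7%), against 34.6% of the 1582 joined regions of 5000 to below 7000 bp and 9.73% of all joined regions. A longer region has more room for every list, and the share ran from 46.5% of the 469 large regions below 8000 bp summed length to 98.0% of the 49 regions of 30000 bp or more. YY1 was in 97.6% of large regions, with a median of 4 peaks, TEAD1 in 92.0%, RXRG in 87.9%, NR2F2 in 86.2% and SREBP1 in 85.8%, each of these with a median of 2 peaks. In the regions of 5000 to below 7000 bp YY1 was in 89.7%, TEAD1 in 75.5%, RXRG in 70.2%, NR2F2 in 69.7% and SREBP1 in 70.9%. Over all joined regions the shares were 44.8% for YY1, 31.6% for TEAD1, 37.9% for RXRG, 43.4% for NR2F2 and 28.1% for SREBP1. RXRG was present only through gaps in 195 regions and SREBP1 in 193, against 70 for NR2F2, 54 for TEAD1 and 12 for YY1. Where exactly 4 factors were present, in 546 large regions, the missing one was SREBP1 in 181, NR2F2 in 141, RXRG in 136, TEAD1 in 87 and YY1 in 1.

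Density along the span was set beside size. From the smallest class of large regions (below 8000 bp) to the largest (30000 bp or more), NR2F2 had 4.47 and 4.34 peaks per 100 kb of span, RXRG 5.47 and 5.39, YY1 7.65 and 8.30, and TEAD1 4.998 and 5.98. Between them the course was uneven, with 3.81 NR2F2 peaks per 100 kb in regions of 20000 to below 30000 bp. SREBP1 had 4.03 in the smallest and 3.39 in the largest class. A single large region had no peak of any factor. It lay at chr1:214146743-214206068, with 12 constituents and a summed length of 12897 bp, and its widest constituent measured 2934 bp.

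At the other extreme, some regions were crowded with factor peaks. The median large region had 13 factor peaks over the 5 lists, and the median density was 24.99 per 100 kb of span. In 49 large regions it was above 80 per 100 kb, and in 24 above 100. The region at chr1:56842098-56976077 had 170 peaks in 133980 bp, 45 of NR2F2, 42 of RXRG, 41 of TEAD1 and 37 of YY1, but 5 of nerve SREBP1. Its borders were abrupt: the 100 kb before it held 1 factor peak and 2 H3K27ac peaks, and the 100 kb after it 4 and 1. The region at chr1:13497674-13564321 was alike, with 103 factor peaks in 66648 bp, of which SREBP1 had 4, and with 6 and 2 factor peaks in its flanks. At chr14:46757169-46864039 there were 153 factor peaks, 34 or 35 for each S16 factor and 15 for SREBP1, with 68 factor peaks before it and 1 after it. The fourth, at chr16:21683097-21757470, had 78 factor peaks on only 13289 bp of summed length, and its flanks were occupied too, with 55 and 69. These regions held 2.198% of the NR2F2 peaks in large regions and 1.67% of the TEAD1 peaks, and without them NR2F2 met 19.7% and YY1 35.9% of the constituents. Crowding per span was highest in shorter regions, chosen after their values were seen: chr5:95165256-95180634 had 38 factor peaks on 4 constituents, and chr20:42594852-42617353 had 47 on 6. Copy number was not measured, and whether it differs at these places was not tested.

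The third comparison concerned spacing. Measured from the end of one large region to the start of the next on the same chromosome, the 2275 distances had a median of 220110 bp, against 512858.5 bp between neighbours among the 1582 joined regions of 5000 to below 7000 bp, which are fewer. Short distances were more frequent among large regions. Of the distances, 7.60% were at most 12500 bp, just over the 10 kb that separates regions by rule, 24.97% at most 50 kb and 35.7% at most 100 kb, against 2.497%, 11.01% and 18.5% between the smaller regions. Of the 812 pairs within 100 kb, 382 had no other joined region between them. When large regions within 100 kb of each other were counted as a run, 1293 of the 2295 (56.3%) lay in 481 runs of 2 or more, and 1002 stood alone.

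The longest runs had 10 large regions each. One covered 1059 kb at chr7:11153415-12212833 with 105 constituents, and held 81 YY1, 73 RXRG, 41 TEAD1, 40 SREBP1 and 33 NR2F2 peaks. The others were at chr3:12829231-13751803, with 39 YY1 and 18 NR2F2 peaks, and chr3:14217900-15031414, with 49 and 22. In each of these YY1 had the most peaks of the 5 factors. At the other end, neighbouring large regions were 75.7 Mb apart on chromosome 4, between 67135646 and 142850294, with 218 H3K27ac peaks in between that formed none. The next longest distances were 30.1 Mb on chromosome 14 and 29.7 Mb on chromosome 2.

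**Figure D5:**
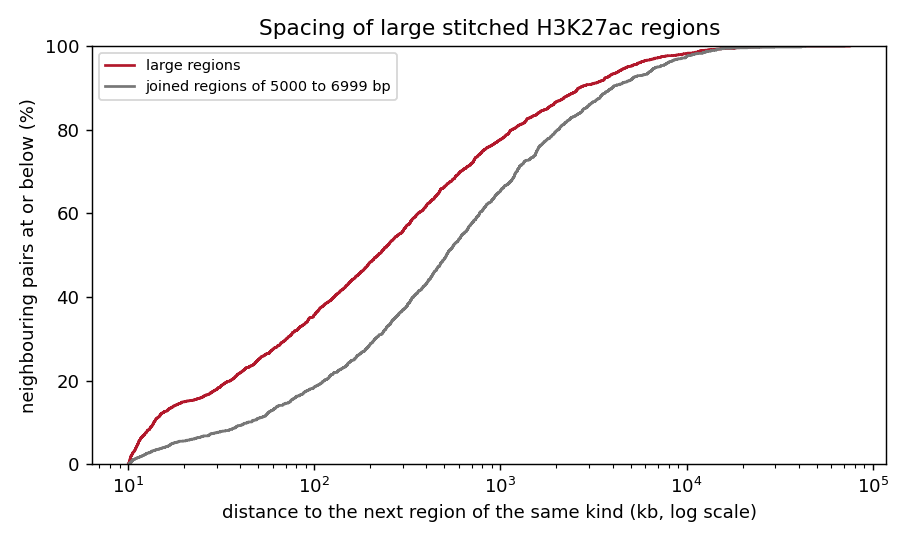
The cumulative share of neighbouring pairs, in percent, is plotted against the distance between them in kb on a log scale, for large regions and for joined regions of 5000 to below 7000 bp. At 100 kb the curve of large regions stands at 35.7% and that of the smaller regions at 18.5%, and both begin at 10 kb because nearer peaks were joined.

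Chromosomes differed in their number of large regions. Over the length up to the last H3K27ac peak, chromosome 10 had 1.91 per Mb (214 regions), chromosome 7 had 1.45, chromosome 12 had 1.32, chromosome 19 had 1.25 and chromosome 9 had 1.21. The lowest were chromosome 17 with 0.454 per Mb (42 regions), chromosome 14 with 0.478 and chromosome 18 with 0.482. The share of H3K27ac peaks that lay in large regions ran from 13.7% on chromosome 17 to 32.9% on chromosome 10. The factor content of the constituents also varied. NR2F2 met 26.99% of them on chromosome 19 and 12.9% on chromosome 18, against 28.1% and 26.0% of the other H3K27ac peaks there. RXRG met 24.7% and 11.1% on the same chromosomes, against 21.6% and 20.5%. YY1 ranged from 30.1% on chromosome 15 to 43.3% on chromosome 20, against 27.1% and 31.1% of the other H3K27ac peaks. TEAD1, over a narrower range, ran from 19.9% on chromosome 12 to 27.2% on chromosome 14, against 15.7% and 17.9%.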

How the data were processed

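The 6 deposited peak lists of this series were used, 1 library each, and the nerve input was not analysed here. Per the submitters' processing notes, the tools were bcl2fastq 2.20.0.422, Bowtie2, MACS2, bedtools and deepTools, with build rn5. What each tool did, the thresholds and any controls are not stated there. The deposited S16 files give chromosome, start and end. The deposited score of the SREBP1 list is 1 in every peak and ranks nothing. No 2 neighbouring H3K27ac peaks were closer than 925 bp.

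H3K27ac peaks on chromosomes 1 to 20 were joined across gaps of up to 10 kb. The rule and the members, and the measures chosen with them, were set with earlier results of these data known. A factor peak sharing 1 bp with a constituent was counted there, and otherwise in the gap. Shares have exact (Clopper-Pearson) 95% intervals, medians an interval from binomial ranks. No p-value was computed. Width classes were quartiles over all H3K27ac peaks. Positions count from 1. The regions named were the 10 with the largest summed length, the 5 each with the largest span, the most constituents and the most factor peaks, those nearest the threshold, and any without a factor. Others are said to have been chosen after their values were seen. The comparisons by number of peaks in a region, of outer and inner constituents, of pairs on a constituent, of runs and of flanks were not planned. Promoter and gene tables at hand are of another build and were not used, and no sequence is printed. The scripts were tested on simulated data. Python 3.11.15, NumPy 2.4.6, SciPy 1.17.1 and Matplotlib 3.10.9 were used.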

Additional observations from a re-analysis of the deposited data

Results flagged for a closer look

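Chromosome X was outside the rule, and its peaks enter no comparison above. Joined in the same way, it held 17 large regions, with 168 of its 2257 H3K27ac peaks (7.44%) and a median span of 56597 bp. These regions had a mean of 3.35 NR2F2, 6.18 YY1, 4.71 RXRG, 3.71 TEAD1 and 2.76 SREBP1 peaks, against 2.60, 4.53, 3.004, 3.005 and 2.23 in the large regions of chromosomes 1 to 20. Unplaced sequences held 2 more. This signal in data that the comparisons do not use is given as a value, and no difference was tested.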

How the results depend on the processing

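Of 131 values recomputed under the alternatives for 14 results, 56 moved by less than the counting interval (counts by less than 1.5 times) and 75 moved further. These results are single counts, shares and medians, so none had a direction to reverse. The contrast of constituents with other H3K27ac peaks has a direction. It reversed for NR2F2, RXRG and SREBP1 with joining across 5 kb. No paired analysis was possible because a single library stands for each target. Joining H3K27ac peaks only across 5 kb left 342 large regions with a median span of 21288 bp, a median spacing of 2407795 bp and all 5 factors in 39.2%. NR2F2 then met 28.9% of the constituents, RXRG 21.9%, SREBP1 14.4%, TEAD1 36.0% and YY1 48.9%, and the shares of peaks in gaps were 5.50% for NR2F2, 13.4% for RXRG, 18.1% for SREBP1, 9.55% for TEAD1 and 6.08% for YY1. Joining across 12500 bp gave a median span of 66483 bp, a spacing of 170251 bp, all 5 factors in 73.5%, TEAD1 on 22.3% and YY1 on 35.3% of the constituents, and gap shares of 15.1% for NR2F2, 34.4% for RXRG, 25.2% for SREBP1 and 12.9% for TEAD1. Joining across 20 kb gave a span of 107309 bp, a spacing of 172320 bp, all 5 factors in 81.0%, SREBP1 on 17.1%, TEAD1 on 21.1% and YY1 on 34.0%, and gap shares of 18.5% for NR2F2, 39.4% for RXRG, 29.6% for SREBP1, 14.3% for TEAD1 and 8.75% for YY1. More gap is enclosed by construction as the joining distance grows.

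A minimum summed length of 5000 bp gave 3877 regions, a median span of 38873 bp, a spacing of 108111 bp, TEAD1 on 22.8% of the constituents and all 5 factors in 52.4%. A minimum of 10000 bp gave 1182 regions, 66691 bp, 538594 bp, 24.0% and 77.8%. When the midpoint of a factor peak had to lie in the constituent, NR2F2 met 19.3%, RXRG 17.2%, SREBP1 13.8%, TEAD1 22.2% and YY1 34.7%, with gap shares of 15.7% for NR2F2, 33.8% for RXRG, 34.8% for SREBP1, 16.4% for TEAD1 and 10.4% for YY1. When 50% of the shorter peak had to be shared, NR2F2 met 19.3%, RXRG 17.2%, SREBP1 14.0%, TEAD1 22.2% and YY1 34.8%, with gap shares of 15.5% for NR2F2, 33.6% for RXRG, 34.1% for SREBP1, 16.2% for TEAD1 and 10.1% for YY1. Keeping the wider factor peaks only (for SREBP1, of one width, the lower-numbered peaks of each chromosome) gave NR2F2 on 11.9%, RXRG on 11.7%, SREBP1 on 11.02%, TEAD1 on 15.1% and YY1 on 23.1%, gap shares of 6.70% for NR2F2, 19.4% for RXRG, 16.9% for SREBP1, 7.16% for TEAD1 and 1.65% for YY1, and all 5 factors in 36.3% of large regions. Fewer peaks enter by construction. The cause of the other shifts was not tested.

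Set against other H3K27ac peaks, the constituents of large regions had higher shares for YY1 and TEAD1 under every one of these settings, with ratios of 1.21 to 1.60 and 1.25 to 1.92. The ratio ran from 0.628 to 1.15 for NR2F2, from 0.774 to 1.08 for RXRG and from 0.954 to 1.34 for SREBP1. Each crossed 1 only with 5 kb. No setting held peak width fixed. Among peaks of 369 to 741 bp and of 742 to 1239 bp, YY1 and TEAD1 were lower in large regions. In the widest class they were higher. Without the 4 regions richest in factor peaks, a step chosen after seeing the data, RXRG had 31.0% and TEAD1 11.9% of their peaks in gaps. Peak lists without heights or read depth limit every share here to whether a peak was called, and a site below the caller's threshold counts as absent.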
